A study of Rattus norvegicus with 6 samples.

Results

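The core of the Hippo pathway was taken as 10 genes, found by symbol with case ignored among the 22427 gene entries that the libraries named together. They are the coactivator genes Yap1 and Wwtr1 (which encodes TAZ), the genes Tead1, Tead2, Tead3 and Tead4 for their DNA-binding partners, the kinase genes Lats1 and Lats2, and the kinase genes Stk3 and Stk4 (which encode MST2 and MST1). All 10 had an entry, each under a single Ensembl gene ID. An entry is a gene that some library listed, so a gene without an entry was listed in none or was not matched by name. Shares of all entries are therefore shares of listed genes and not of all genes. They also include 5089 entries without a symbol, which a search by symbol cannot find. Shares among named entries alone are not given. The study profiled the histone modification H3K27me3 (trimethyl lysine 27), which Polycomb complexes write on silent genes, in primary heart muscle cells of newborn Sprague Dawley rats. The control cells received phosphate-buffered saline and the treated cells 5 mM α-ketoglutarate (α-KG), both for 24 h, in medium with fetal bovine serum. Each group had 2 H3K27me3 libraries, named here control 1, control 2, α-KG 1 and α-KG 2. The authors deposited 1 list of peak-bearing genes per library, so a gene is listed or not listed, and the height, width and place of its peak are unknown. Absence from a list can mean no mark or a signal too weak for peak calling.

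In the Hippo pathway the MST kinases activate the LATS kinases, and these phosphorylate YAP and TAZ, which are then held in the cytoplasm or degraded. YAP and TAZ that escape phosphorylation enter the nucleus, bind TEAD proteins and switch on genes of growth and adhesion. In the heart, YAP is known for driving the division of fetal and newborn muscle cells, and the kinases restrain it. α-KG is a cosubstrate of the enzymes that demethylate histones, the H3K27 demethylases among them.

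H3K27me3 is known to gather at promoters rich in CG dinucleotides, so the promoters of the genes are shown first. RefSeq sequences (build GRCr8, which differs from the rn6 build of the peaks) were matched by symbol for 5 of the 10 genes, Yap1, Wwtr1, Tead3, Lats1 and Stk4, and not for Tead1, Tead2, Tead4, Lats2 and Stk3. Shown are the 250 bases before the start, 5′ to 3′ on the strand of the gene, for the 3 genes whose window lies wholly outside the RefSeq span of the gene, with CG dinucleotides in capitals. They lie at chr1:3980551-3980800 on the plus strand (Lats1), chr20:6413178-6413427 on the minus strand (Tead3) and chr2:143916942-143917191 on the minus strand (Wwtr1).
Lats1: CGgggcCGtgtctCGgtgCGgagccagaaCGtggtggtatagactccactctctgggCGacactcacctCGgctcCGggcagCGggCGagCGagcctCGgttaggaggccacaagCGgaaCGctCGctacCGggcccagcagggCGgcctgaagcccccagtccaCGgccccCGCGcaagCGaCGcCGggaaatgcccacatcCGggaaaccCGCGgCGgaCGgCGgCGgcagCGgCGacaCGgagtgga
Tead3: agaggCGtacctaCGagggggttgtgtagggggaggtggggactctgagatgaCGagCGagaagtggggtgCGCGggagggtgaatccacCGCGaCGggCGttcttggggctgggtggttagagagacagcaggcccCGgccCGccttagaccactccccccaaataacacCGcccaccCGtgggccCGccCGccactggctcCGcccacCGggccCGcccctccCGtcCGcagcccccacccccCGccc
Wwtr1: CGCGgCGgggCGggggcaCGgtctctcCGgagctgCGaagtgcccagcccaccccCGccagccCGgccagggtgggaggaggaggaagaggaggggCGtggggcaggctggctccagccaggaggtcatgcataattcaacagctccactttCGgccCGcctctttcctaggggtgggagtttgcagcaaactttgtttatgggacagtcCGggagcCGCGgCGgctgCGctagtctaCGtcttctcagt

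The Lats1 window held 33 CG dinucleotides, that of Tead3 22 and that of Wwtr1 18. The Yap1 window held the most of the 5, with 44, and the Stk4 window the fewest, with 15. Of the Yap1 window 203 bases, and of the Stk4 window all 250 bases, lay inside the RefSeq span of the gene, so a further start lies upstream of each. Among 15930 named protein-coding genes with 1 promoter in the RefSeq table, the median was 11 CG dinucleotides, so all 5 Hippo genes lay above it. That median takes in 3641 genes without a matched entry (median 4). For genes listed in all 4 libraries it was 15.5 (quartiles 7 and 24), and Stk4 lay below that. Tead3 and Wwtr1 lay between these quartiles. TEAD proteins are known to bind the sequence GGAATG, which reads CATTCC on the other strand. Either was present in 10.7% of the 15930 promoters and in 1 of the 5 Hippo windows, that of Yap1. The match in Yap1 began 116 bases before the start, within the 203 bases that lie inside the RefSeq span of the gene. It is shown in capitals within 30 bases at chr8:13451536-13451565 on the minus strand of GRCr8, since Yap1 encodes a coactivator of TEAD.
Yap1: agggagtctgcaGGAATGtaacgacgcgca

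Nothing in the peak lists shows whether TEAD binds there or whether the peak at Yap1 covers it. The windows of Lats1, Tead3, Wwtr1 and Stk4 held neither spelling.

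Of the 10 genes, 8 were listed with an H3K27me3 peak in all 4 libraries, and the remaining 2, Tead2 and Stk4, were missing from 1 or more. The same held for 14077 of all 22427 entries (62.8%). No Hippo core gene was listed in exactly 2 libraries, as 11.3% of all entries were.

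The coactivator genes Yap1 and Wwtr1 were each listed in every library, control 1 and 2 as well as α-KG 1 and 2. The groups therefore did not differ for either gene. Both carry the WW domain in the deposited annotation, through which YAP and TAZ bind proline-rich partners such as the LATS kinases. Of the other 47 entries with that domain, 38 (80.9%) were listed in all 4 libraries.

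Of the 4 TEAD genes, 3 were listed throughout and 1 was not. Tead1, which is known for binding the promoters of muscle genes, Tead3, and Tead4, which is needed for the first cell lineage of the embryo, were each listed in all 4 libraries. Tead2, a paralogue active in the early embryo, was listed in α-KG 2 and in none of control 1, control 2 and α-KG 1. Its 2 α-KG libraries thus differed from each other, and α-KG 1 matched both controls. Listing in α-KG 2 alone was shared by 1561 entries (6.96%), and α-KG 2 was the longest list. The 4 TEAD genes were the only entries with the TEA/ATTS DNA-binding domain. RefSeq places a gene named Tead4l1 beside Tead4, and no entry has that name. The sequences of these genes were not compared, so whether reads could be assigned to either is unknown.

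The LATS kinase genes Lats1 and Lats2 were likewise listed in both controls and both α-KG libraries. LATS kinases phosphorylate YAP and TAZ directly, and Lats2 is also a known target gene of YAP and TEAD. Among the MST kinase genes, Stk3 was listed in all 4 libraries. Stk4 was listed in control 2, α-KG 1 and α-KG 2 and not in control 1. The controls thus differed from each other at Stk4, and control 2 matched both α-KG libraries. Its pattern, missing from control 1 alone, was shared by 1101 entries (4.91%), and control 1 was the shortest list.

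All 4 kinase genes carry the protein kinase domain, and 3 of them were in all 4 libraries, beside 372 of the 464 other entries with that domain (80.2%). The MST kinases also carry the SARAH domain, a coiled helix through which they pair with themselves, with the scaffold Sav1 and with RASSF proteins. Of the 7 other SARAH entries, 5 were in all 4 libraries: Sav1, Rassf2, Rassf3, Rassf5 and Rassf6. Rassf1 was missing from α-KG 1, and Rassf4 was listed in control 1 and α-KG 2. These SARAH genes were named after their listings were seen.

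**Figure D1:**
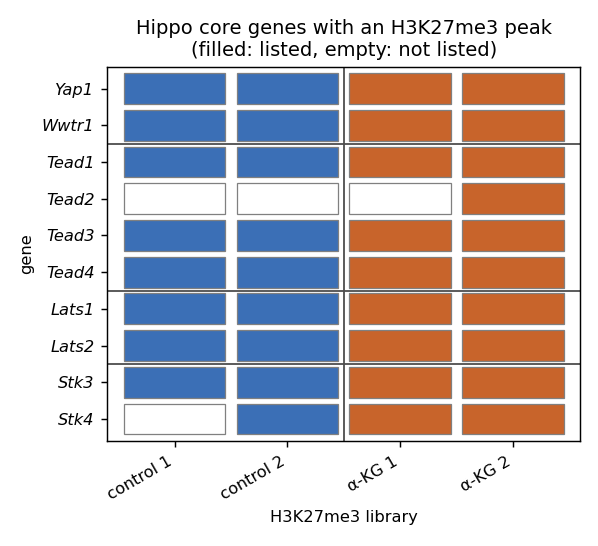
Listing of the 10 Hippo core genes (rows, with lines between coactivators, TEAD genes, LATS genes and MST genes) in each H3K27me3 library (columns, controls in blue and α-KG in orange). A filled cell is a listed gene and an empty cell one that is not listed. The 8 other rows are filled throughout, and empty cells occur for Tead2 in 3 libraries and for Stk4 in 1.

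The next comparison asked whether α-KG changed which Hippo core genes carried the mark. None was lost, that is, listed in both controls and neither α-KG library, and none was gained, the reverse. Among all entries 516 (2.30%) were lost and 729 (3.25%) gained. At those shares a count of 0 among 10 genes shows no sparing. Under the looser rule of being listed in more α-KG than control libraries, 2 of the 10 genes were higher under α-KG, Stk4 and Tead2, against 18.8% of all entries. In more control than α-KG libraries there were 0 of 10, against 12.6%. The share of 2 in 10 is close to that of all entries. Without control 2, Stk4 counted as gained (1 gene), and without α-KG 1, Tead2 did (1 gene). Over all entries, the first setting adds to the gained share the 4.91% missing from control 1 alone. The second adds the 6.96% listed in α-KG 2 alone.

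A two-sided Fisher's exact test of listing by treatment was run for every entry. Each of the 10 genes had an exact p of 1 and a Benjamini-Hochberg adjusted p of 1. With 2 libraries against 2 the smallest possible p is 0.333, which 1245 entries reached. Of the 22427 entries, 0 had an unadjusted p under 0.05 and 0 an adjusted one, and no gene could have. The labels do not say whether replicates were separate cultures, so differences between libraries of a group may be technical.

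By library, 8 of the 10 genes were listed in control 1, 9 in control 2, 9 in α-KG 1 and 10 in α-KG 2. The groups overlapped, since control 2 and α-KG 1 had the same number. The control libraries averaged 8.5 ± 0.71 genes (SD, n = 2) and the α-KG libraries 9.5 ± 0.71 (SD, n = 2), a difference of 1 gene, and no test was made on this count. The whole lists held 17245, 18442, 18120 and 19181 entries in the same order, so the library with the fewest Hippo genes was the shortest and the one with the most was the longest. Scaled to equal list length, the difference fell to 0.603 genes. In shares, control 1 listed 80.0% of the Hippo genes and 76.9% of all entries, control 2 90.0% and 82.2%, α-KG 1 90.0% and 80.8%, and α-KG 2 100% and 85.5%. The Hippo share lay above that of all entries in each of the 4 libraries, which count the same 10 genes and are not separate checks. With 1 gene fewer, the share in control 1, control 2 or α-KG 1 would have lain below that of all entries. The part of list length in these counts beyond this scaling was not tested.

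**Figure D2:**
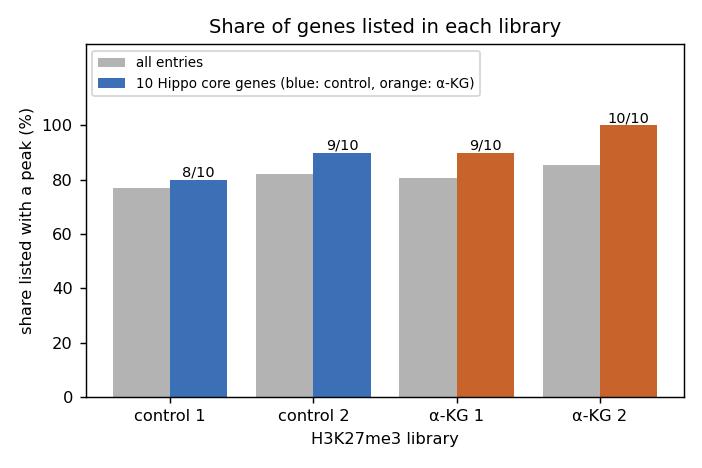
Share of all 22427 entries (grey) and of the 10 Hippo core genes (blue for control, orange for α-KG) listed with a peak in each H3K27me3 library, in percent, with the number of Hippo genes above its bar. The Hippo share runs from 80.0% in control 1 to 100% in α-KG 2, and the share of all entries is lowest and highest in the same libraries.

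Genes that work with the core were described from 5 lists of 72 genes, the core genes left out, and 69 of these had an entry. Of the 69, 55 (79.7%) were listed in all 4 libraries, 0 were lost, and 1 was gained. Over all entries these shares were 62.8%, 2.30% and 3.25%, so 1 gained gene among 69 is not above the background. The gained gene was Crb1, which encodes an apical polarity protein of the Crumbs family. It was listed in α-KG 1 and α-KG 2 and in neither control. Under the looser rule, 6 of the 69 were in more α-KG libraries and 6 in more control libraries, against 18.8% and 12.6% of all entries. The gained count rose to 2 when control 1 was left out, and to 3 when control 2 or α-KG 1 was. It stayed at 1 when α-KG 2 was left out. Lost genes then numbered 2 (control 1 left out), 0 (control 2), 3 (α-KG 1) and 1 (α-KG 2). Over all entries these settings add to the 3.25% gained 1.69% (control 1 left out), 4.91% (control 2), 6.96% (α-KG 1) and 2.03% (α-KG 2). To the 2.30% lost they add 2.27%, 1.73%, 3.8% and 2.49% in the same order.

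Among the direct partners of the core kinases, 5 of 6 were in all 4 libraries. These were Sav1, the scaffold of the MST kinases, Mob1b, a LATS cofactor, Nf2, which encodes the tumour suppressor merlin, and Wwc1 and Wwc2, which encode KIBRA and its paralogue. Mob1a, the close paralogue of Mob1b, was listed in α-KG 2 alone, the same listing as Tead2.

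The upstream regulators had the lowest share of the 5 lists, with 16 of 25 entries (64.0%) in all 4 libraries, close to that of all entries. Examples are Crb2, a second Crumbs gene, and the large cadherin genes Dchs1, Dchs2 and Fat1, whose proteins pass signals between neighbouring cells. Frmd6, which encodes a FERM-domain protein that acts upstream of the kinases, was listed in α-KG 2 alone, as Tead2 was. Fat2 was missing from control 1 alone, as Stk4 was. Crb3 was listed in control 2 and α-KG 2, and Rassf1 in all but α-KG 1. Mink1 had no entry.

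Of the genes listed as restraints or cofactors of the pathway, 10 of 12 entries were in all 4 libraries. Among them were Amot, Amotl1 and Amotl2, which encode motins that hold YAP in the cytoplasm, and Ajuba, which encodes a LIM protein that binds LATS. Wtip, a relative of Ajuba, was missing from α-KG 2 alone. Stk38l, which encodes a kinase of the LATS family, was listed in control 2 alone. Vgll1 had no entry.

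The STRIPAK complex brings a phosphatase to the MST kinases and switches them off. Of the 8 genes described, 6 were in all 4 libraries, among them Mob4, Sike1, Slmap and Ppp2r1a, the gene for the scaffold subunit of the phosphatase. Strip2 was missing from control 2 and Strn3 from α-KG 2, each from that library alone.

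The pattern of Tead2 was thus shared by 2 of the 69 pathway genes, Mob1a and Frmd6, and that of Stk4 by 2, Fat2 and Taok2, as judged by identical listing across the 4 libraries. Neither share is above that of all entries, 6.96% and 4.91%.

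**Figure D3:**
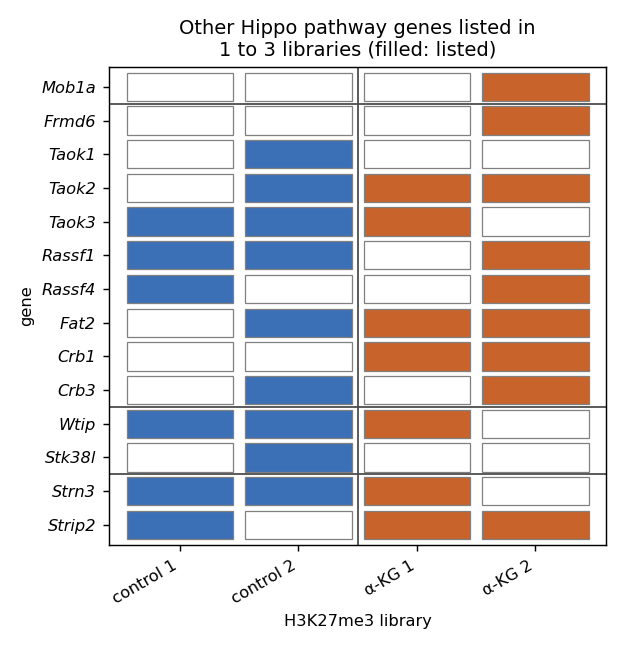
Listing of the 14 pathway genes that were neither core genes nor listed in all 4 libraries (rows, with lines between core partners, upstream regulators, restraints and cofactors, and STRIPAK genes) in each H3K27me3 library (columns, controls in blue and α-KG in orange, filled where listed). Crb1 is the only row with both α-KG cells filled and both control cells empty, and no row shows the reverse.

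The known target genes of YAP and TEAD were listed throughout. All 20 with an entry were in all 4 libraries, among them Amotl2, Ankrd1, which encodes a stress-responsive protein of heart muscle, Arhgef17 and Asap1. Over all entries the share was 62.8%. Amotl2 and Ptpn14 are also counted among the restraints and cofactors. The matricellular genes Ccn1 and Ccn2, the best-known targets of YAP, are named here after their listings were seen. They were in all 4 libraries under their older symbols Cyr61 and Ctgf. Foxf2 had no entry. Without the targets, 35 of the other 49 pathway entries (71.4%) were in all 4 libraries. Of 15 targets with 1 promoter in the RefSeq table, 5 held the TEAD sequence in the same 250 bases (33.3%), against the 10.7% of protein-coding genes given above. These 5 were Amotl2, Ccn1, Ccn2, Nuak2 and Ptpn14. A higher share can follow from choosing known targets of TEAD, and it says nothing about the peak lists.

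**Figure D4:**
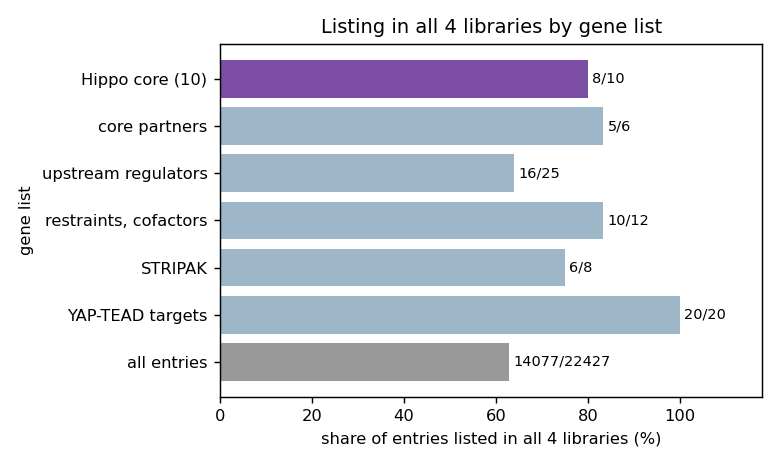
Share of entries listed in all 4 libraries, in percent, for the 10 Hippo core genes (purple), the 5 lists of other pathway genes (light blue) and all entries (grey), with the counts beside the bars. YAP-TEAD targets reach 20 of 20, upstream regulators 16 of 25, the core genes 8 of 10 and all entries 62.8%.

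Listing followed the CG content of promoters over the genome, which the choice of genes did not use. Among the named protein-coding genes with 1 promoter, 28.5% of those with 0 to 4 CG dinucleotides in the 250 bases were listed in all 4 libraries, and 86.8% of those with 40 or more. In the band from 30 to 39, which holds Lats1, the share was 80.2%. It was 61.0% from 20 to 24, the band of Tead3, and 54.5% from 15 to 19, the band that holds both Wwtr1 and Stk4. Wwtr1 was listed in all 4 libraries and Stk4 in 3, and the Stk4 window, unlike that of Wwtr1, lies inside the gene span. Genes listed in all 4 libraries had a median of 15.5 CG dinucleotides, and genes listed in 1 to 3 libraries 9. The median was 14 for genes with the listing of Tead2 (α-KG 2 alone) and 13 for those with the listing of Stk4 (all but control 1), both close to 15.5. Gene length and the true position of the peaks were not available for this comparison.

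**Figure D5:**
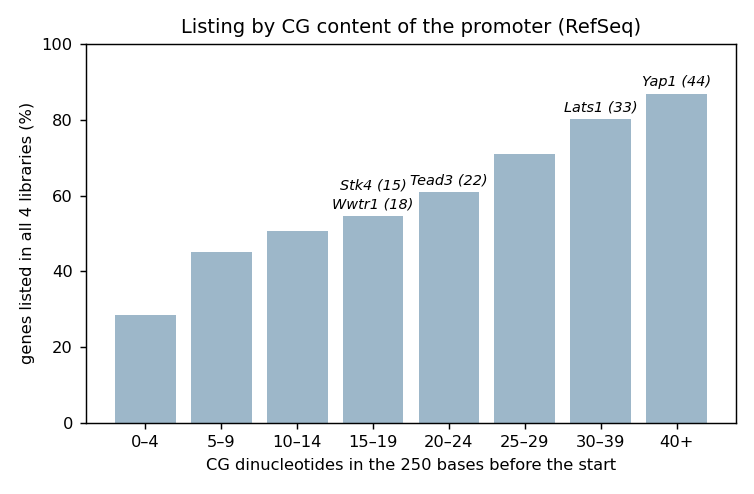
Share of named protein-coding genes listed in all 4 libraries, in percent, by the number of CG dinucleotides in the 250 bases before the RefSeq start. Genes without a matched entry count as not listed. The 5 Hippo core genes with a promoter sequence are written above their band with their own number, and the share rises from 28.5% to 86.8% across the bands.

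Neighbouring genes can share a peak, so the nearest named protein-coding gene on each side was read for every Hippo core gene in RefSeq order. Of these 20 neighbours 16 had an entry, and 8 of the 16 had the same 4 listings as the Hippo gene beside them. Over all 12886 adjacent pairs with entries the share was 48.8%, close to that of the Hippo genes. In all 8 matches, and in 5968 of the 6282 matches over all pairs, both genes were in all 4 libraries. Whether neighbours shared a peak was not tested. Stk3 had neighbours in all 4 libraries on both sides, the potassium channel gene Kcns2 and the transcription factor gene Osr2. Birc3 beside Yap1, Tm4sf4 beside Wwtr1, Parva beside Tead1, Tulp1 beside Tead3, Katna1 beside Lats1 and Xpo4 beside Lats2 were also in all 4 libraries. Commd2 beside Wwtr1, Rpl10a beside Tead3, Tulp3 beside Tead4, Nup43 beside Lats1 and Sap18 beside Lats2 were not in all 4 libraries. No neighbour with an entry had the listing of Tead2 or Stk4 beside it. For Tead2 this rests on 1 side, since Dkkl1 had no entry. Cd37, on the other side of Tead2, and Kcns1, next to Stk4, were in all 4 libraries, and Tomm34 on the other side of Stk4 was listed in control 2 and α-KG 2.

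Markers were read as a check of the labelled cell type. Of 7 cardiomyocyte marker entries every library listed 5, and 4 were in all 4 libraries (Tnnt2, Actc1, Actn2 and Nkx2-5). Ryr2 was in both controls and neither α-KG library, Tnni3 in α-KG 1 alone and Myl7 in α-KG 2 alone. Myh6, which encodes the α heavy chain of cardiac myosin, had no entry. Fibroblast markers had 6 and 5 of 6 entries listed in control 1 and 2, and 4 and 6 in α-KG 1 and 2. Endothelial markers had 3 and 5 of 5 in the controls and 4 and 5 in the α-KG libraries. Of 4 immune markers, Ptprc and Csf1r were in every library and Cd68 and Adgre1 had no entry. Of 4 smooth muscle markers, Myh11 was in every library, Cnn1 in all but control 1, and Acta2 and Tagln had no entry. A peak at a marker gene is no measure of expression, so these listings cannot identify the cells, and the part of other cell types in the Hippo listings was not tested. As a check of the mark, all 11 entries for developmental regulators such as Olig2 and Lhx2 were in all 4 libraries, beside 3 of 10 housekeeping entries. Single libraries nevertheless listed most housekeeping entries, with 6 and 10 of 10 in control 1 and 2 and 8 and 6 in α-KG 1 and 2.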

How the data were processed

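H3K27me3 peaks of 4 libraries were compared; the 2 input samples were not analysed here. The values the authors deposited, per the labels and the files themselves, are other than numbers: 3 columns without a header (Ensembl ID, symbol, protein domains) for each gene with a peak. CASAVA, BWA, MACS2 and build rn6 appear, without roles, in the submitters' processing notes. Use of an input, peak thresholds and the assignment of peaks to genes are not stated in the sources at hand, and read depth is unknown, so no interval that needs it was computed.

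Python 3.11.15 with pandas 2.3.3 read the lists, and scipy 1.17.1 ran the test (two-sided Fisher's exact test per entry, Benjamini-Hochberg adjustment over all entries, threshold 0.05). Calls were tested on simulated data. The genes and lists were chosen with earlier results of these data known. The rule names every core gene, pathway genes lost or gained, up to 4 per list found in all libraries and up to 4 found in fewer, alphabetically, pathway genes with the listings of a varying core gene, and neighbours. Wwc2 was named beyond the limit of 4. 1 gene that the lists first held is not reported here. RefSeq tables (GRCr8) gave promoters, names and gene order. Promoters counted across genes were those of named protein-coding genes with 1 table row, matched to entries by symbol or a single synonym. Alternatives were 1 library left out at a time, a replicate block, counting symbols, keeping case, current symbols alone, equal list length and a looser call.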

Additional observations from a re-analysis of the deposited data

How the results depend on the processing

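The number of Hippo core genes in all 4 libraries stayed between 8 and 9 when any 1 library was left out, and was 9 when 1 missing library was allowed, a setting added after the data were seen. Core genes listed under α-KG exceeded those under control by 0.5 to 1.5 without 1 library, 0.603 at equal list length and 1 with the replicate block. In this balanced design the replicate block cannot change the difference of means. The labels number the libraries but do not say that a number marks a shared culture, and differences between replicates 1 and 2 correlated weakly across entries between the groups (r = 0.0478, 22427 entries, which share libraries). Core genes gained numbered 0 to 1 without 1 library and 2 under the looser call. Core genes lost stayed at 0 in every setting tried. This follows from the listings, since every core gene listed in a control was also in both α-KG libraries. Pathway genes lost numbered 0 to 3 without 1 library and 6 under the looser call, and those gained 1 to 3 and 6. Fewer libraries have to share the pattern in these settings, so higher counts follow from their construction. Pathway genes in all libraries numbered 53 with current symbols alone and 55 to 58 otherwise. Counting symbols or keeping case changed none of these counts. Depth is unknown, so a gene missing from a list may have fallen below detection.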
